A study of Mus musculus with 60 samples.

Results

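The dorsal hippocampus of mice 45 minutes after Restraint was compared with the dorsal hippocampus of Homecage mice, in 5 libraries of each group, which make 10 of the 60 libraries of the study. The mice were wild type C57BL/6 at postnatal day 105, and poly(A)-enriched RNA of the dissected tissue was sequenced. Handling and Swim groups of dorsal hippocampus, and Homecage and Restraint groups of ventral and whole hippocampus, also 5 libraries each, serve here as comparisons. By the study's design text there were 5 mice per condition, so each library may stand for a mouse. The labels do not say whether dorsal and ventral libraries came from the same mice or whether tissue was pooled. The comparison was taken from the authors' deposited table of dorsal Restraint against dorsal Homecage, which holds the mean estimated count of each group, a log2 fold change, a p-value and an adjusted p for 13633 genes. The table has no value for a single library, so the spread within a group enters only through the authors' test. Which test that was is not given, so how its p-values weigh the spread between libraries is not known. Mean counts summed to 23.4 M (M, 1e6 counts) in Homecage and 23.0 M in Restraint, and the smallest sum of both means for any gene was 28.4.

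Restraint, in which a mouse is confined so that it cannot move freely, is a widely used acute stressor. It activates noradrenergic and other inputs to the brain within seconds and releases corticosterone within minutes. Neurons that fire strongly switch on immediate early genes, which need no new protein to be transcribed, by way of calcium, cyclic AMP and MAP kinase signals that reach the factors CREB and SRF. Corticosterone binds the glucocorticoid receptor, which moves to the nucleus and acts on its own set of targets. Endothelial cells and glia of the same tissue carry both kinds of response as well, and the hippocampus, where mineralocorticoid and glucocorticoid receptors are both abundant, feeds back on the hormone axis.

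Restraint raised early-response genes and corticosteroid-induced genes, and the falls were fewer. Throughout, a gene is said to have risen or fallen when its adjusted p in the authors' deposited table (Benjamini-Hochberg) was under 0.05. By that rule 84 of 13633 genes (0.616%) differed, 52 of them higher (0.381%) and 32 lower (0.235%), while 1309 genes had an unadjusted p under 0.05. A log2 fold change of 1 is a doubling of the count relative to Homecage, and the standard error (SE) printed after ± is the one implied by the authors' fold change and p-value. Of the genes that rose, 22 did so by at least 2-fold, and of those that fell, 8 did. The 22 include all 6 choroid plexus markers that rose (Ttr, F5, Aqp1, Col8a1, Otx2 and Enpp2), with Mfrp, Sulf1 and 1500015O10Rik. These are described below, and the choroid plexus is not part of the hippocampus. Regional markers were compared in the Homecage groups. There 5 of 6 listed dorsal hippocampus markers were higher in dorsal tissue, the exception being Gsg1l, and 9 of 9 ventral markers were higher in ventral tissue. These markers were chosen with earlier results of these data known. Between the same groups 5283 of 13754 genes were called, 2532 higher in ventral and 2751 lower. The dissections of the Restraint groups were not checked in this way.

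**Figure D1:**
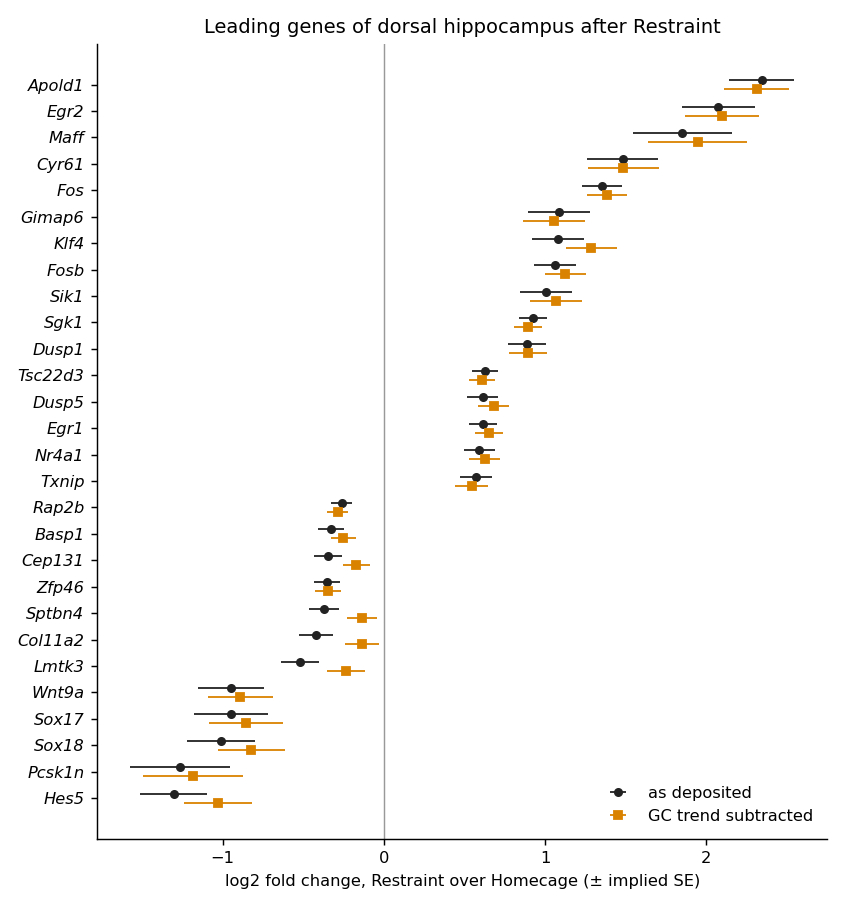
Log2 fold change of dorsal Restraint over dorsal Homecage (x axis) for 28 leading genes, 16 that rose and 12 that fell, with bars of ± 1 implied SE. Black circles are the deposited values and orange squares the values with a trend on GC content removed. With that step Klf4 moves from 1.08 to 1.29, while Lmtk3, Col11a2, Sptbn4 and Cep131 come closer to 0.

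Immediate early transcription factors made up the largest block. Of 26 measured members of the list, 11 rose and none fell, with a median log2 fold change of 0.25 against 0.01 over all genes. Over all genes 0.381% rose, the share to set beside this and the later list counts. Like the regional markers, the lists were chosen with earlier results of these data known. Fos, the AP-1 subunit used most as a mark of recent activity, went from a mean of 132.2 to 332.4 estimated counts, a log2 fold change of 1.35 ± 0.12 in the authors' deposited table (adjusted p 7.1e-24). Its relative Fosb went from 116.8 to 238.8 in the authors' deposited table (1.06 ± 0.13, adjusted p 3.08e-13). The zinc finger factor Egr2, expressed at a low level, rose from 23.4 to 99.4 counts in the authors' deposited table (2.08 ± 0.23, adjusted p 2.5e-16). Egr1 belongs to the same family and was far more abundant to begin with. The authors' deposited table has it at 2430.8 in Homecage and 3674 in Restraint (0.61 ± 0.09, adjusted p 1.79e-09).

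The other risen factors covered several families. The orphan nuclear receptor Nr4a1 rose from 1278.4 to 1898.8 counts (0.59 ± 0.10, adjusted p 9.3e-07 in the authors' deposited table). Maff, a small partner of bZIP factors, rose from 9.8 to 35.2 in the authors' deposited table (1.85 ± 0.31, adjusted p 1.19e-06). Npas4, a factor that neurons induce through calcium entry, rose from 272.8 to 403.6 (0.58 ± 0.12, adjusted p 0.000927 in the authors' deposited table). Fosl2 and Nr4a2, with Klf2 and Klf4 described below, complete the 11. When a trend on GC content, described with the falls, was subtracted, 10 were called, Nr4a2 having an adjusted p of 0.0873. The family was not uniform. In the authors' deposited table Egr3 stood at -0.20 (adjusted p 0.478), Egr4 at -0.15 and Junb at -0.02. Jund stood at -0.79, just outside the threshold (adjusted p 0.0604 in the authors' deposited table). After the GC trend was subtracted Jund was at -0.42 (adjusted p 0.9996), and members above 0 went from 19 to 22 of 26. Egr4, Junb and Jund were picked after their values were seen, to show the spread.

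Of 40 genes that act downstream of neuronal firing, 6 rose and none fell, with a median of 0.11. They were Sik1, the salt-inducible kinase that restrains CREB coactivators (1.01 in the authors' deposited table), the antiproliferative gene Btg2, Arl4d, Errfi1, Cdkn1a and Tiparp. Tiparp was no longer called after the GC step (adjusted p 0.190). Arc, which encodes a synaptic protein and is among the best known activity genes, went from 3128.4 to 4549.6 counts in the authors' deposited table, with an adjusted p of 0.0828. Its log2 fold change of 0.57 ± 0.17 became 0.70 with an adjusted p of 0.01 after that step. Among 17 genes that feed back on MAP kinase signals, 3 rose: the phosphatases Dusp1 (0.89) and Dusp5 (0.61) and the EGF receptor inhibitor Errfi1 (0.34), each in the authors' deposited table.

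**Figure D2:**
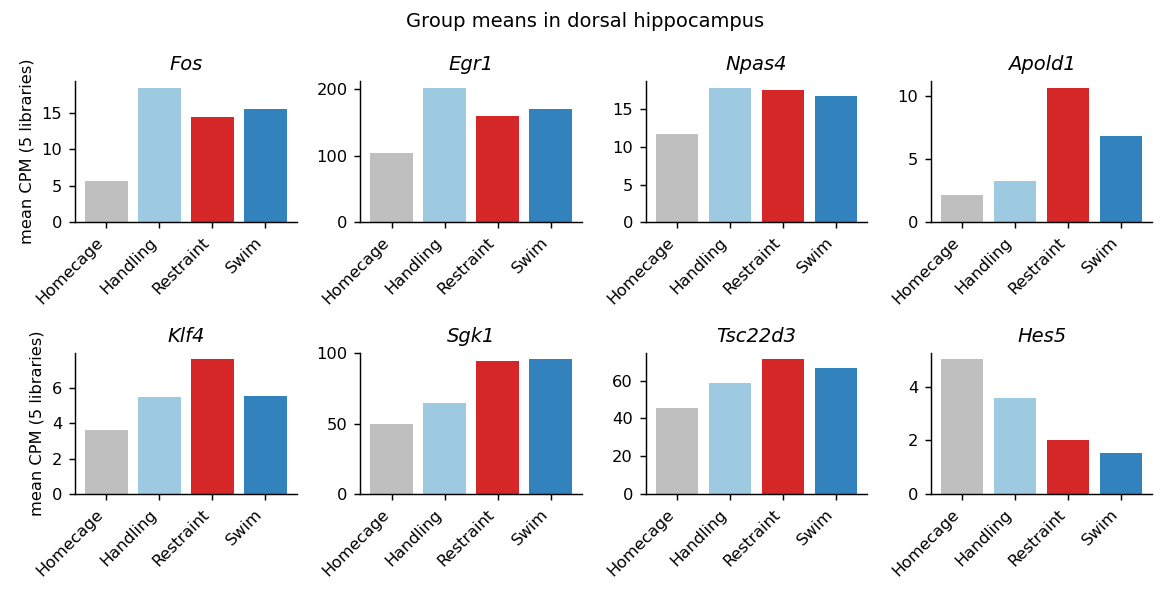
Mean CPM (y axis; the group mean scaled so that all genes sum to 1e6) of 8 genes in the 4 dorsal groups, each bar the mean of 5 libraries computed from the deposited group means, with no error bar because the tables give none. Fos, Egr1 and Npas4 stand above Homecage in each treated group, whereas Apold1 is highest after Restraint and Sgk1 is higher after Restraint and Swim than after Handling.

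Corticosteroid-induced genes formed a second block. Of 33 measured glucocorticoid receptor targets, 7 rose and none fell, and the list's median was 0.13. Sgk1, a kinase whose transcription the hormone-bound receptor drives directly, rose from 1164.4 to 2182.2 counts in the authors' deposited table (0.92 ± 0.09, adjusted p 2.44e-22). Tsc22d3, which encodes the anti-inflammatory leucine zipper GILZ, rose from 1064.8 to 1639.6 in the authors' deposited table (0.63 ± 0.08, adjusted p 8.22e-11). Nfkbia, the inhibitor that holds NF-kB in the cytoplasm, rose from 313.2 to 466 in the authors' deposited table (0.59 ± 0.13, adjusted p 0.00215). Dusp1, Arl4d, Errfi1 and Cdkn1a are the other members that rose, and they also belong to the activity or MAP kinase lists, so the 2 kinds of signal are not separated by these counts.

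Several textbook targets did not pass. Fkbp5, the receptor co-chaperone, stood at 0.04 in the authors' deposited table (adjusted p 0.925). Per1, a clock gene with a hormone response element, stood at 0.23 (adjusted p 0.349 in the authors' deposited table) and at 0.36 with an adjusted p of 0.0454 after the GC trend was subtracted. None of the 14 receptors and partner proteins passed in either direction. The glucocorticoid receptor gene Nr3c1 had means of 2133.8 and 2193.8, and the mineralocorticoid receptor gene Nr3c2 had 5810 and 5617, in the authors' deposited table.

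Blood vessel genes held the rise with the lowest p of all. Apold1, an early gene of endothelial cells, rose from 49.6 to 244.4 counts, 5.08-fold (log2 2.34 ± 0.20, adjusted p 5e-27 in the authors' deposited table). Cyr61, a secreted matrix protein, rose from 45.4 to 125.4 in the authors' deposited table (1.48 ± 0.22, adjusted p 2.58e-08). Klf4 and Klf2, flow-responsive factors, had log2 fold changes of 1.08 and 1.20, at adjusted p 1.6e-08 and 2.17e-05 in the authors' deposited table. With the protease gene Adamts1 they make 5 of 19 endothelial and shear-responsive early genes that rose.

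The same list also held 2 that fell, both endothelial transcription factors of the SoxF family. Sox18 went from 120 to 58.8 counts in the authors' deposited table (-1.01 ± 0.21, adjusted p 0.000707), and Sox17 from 97.4 to 49.8 (-0.95 ± 0.23, adjusted p 0.0119). Among constitutive endothelial markers none of 17 passed, 8 lay above 0 and the median was -0.00. Their summed level was 379.1 CPM in Homecage and 372.9 CPM in Restraint. Cldn5 at -0.42 (adjusted p 0.148) and Egfl7 at -0.33 (adjusted p 0.112) leaned down in the authors' deposited table, and the highest member stood at 0.24. Gimap6, a GTPase gene of lymphocytes and endothelium, rose from 49.6 to 103 (1.09 ± 0.19, adjusted p 1.76e-05 in the authors' deposited table). In bulk tissue, a change in the number of cells of a type and a change in RNA per cell cannot be told apart, and Klf2, Klf4 and Cyr61 are made by other cells as well.

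Promoters of the risen genes are shown because CREB, SRF and the glucocorticoid receptor bind short, known sites. RefSeq start sites on GRCm38.p6 gave a window of 250 bases upstream for 10459 measured genes, among them 42 of the 52 risen and 25 of the 32 fallen. The full cyclic AMP response element (CRE), TGACGTCA, which reads the same on both strands, lay in the windows of 6 of the 42 risen genes, 1 of the 25 fallen and 3.01% of all genes with a window. Its 5-base core, TGACG or CGTCA, which the full element contains, lay in 23 of 42, 7 of 25 and 29.9%. The SRF site, or CArG box, lay in 2 of 42, 1 of 25 and 1.43%. The TATA box, TATAAA on either strand, lay in 9 of 42, 6 of 25 and 7.73%. These are letter matches in a fixed window, and a gene without a match may carry the site elsewhere. The first 6 lines give 60 bases around the CRE (capitals) upstream of risen genes and the seventh the same for Zfr2, which fell. Each is written 5′ to 3′ on the gene's strand.
Arl4d, chr11:101665481-101665540, plus strand: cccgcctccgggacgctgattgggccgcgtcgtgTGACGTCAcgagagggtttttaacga
Btg2, chr1:134079288-134079347, minus strand: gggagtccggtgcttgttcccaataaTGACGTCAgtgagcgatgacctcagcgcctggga
Dio2, chr12:90739100-90739159, minus strand: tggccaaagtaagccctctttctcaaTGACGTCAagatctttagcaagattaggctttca
Dusp1, chr17:26508582-26508641, minus strand: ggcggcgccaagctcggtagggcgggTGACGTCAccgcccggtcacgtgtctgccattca
Errfi1, chr4:150854993-150855052, plus strand: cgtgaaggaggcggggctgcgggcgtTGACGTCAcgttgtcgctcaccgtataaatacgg
Maff, chr15:79347460-79347519, plus strand: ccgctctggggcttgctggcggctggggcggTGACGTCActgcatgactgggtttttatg
Zfr2, chr10:81233103-81233162, plus strand: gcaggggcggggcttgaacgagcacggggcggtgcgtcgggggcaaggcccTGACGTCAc

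Longer windows are printed for the leading gene of each block. In the Fos window the capitals mark 2 CRE cores and the TATA box, and in that of Apold1 a CRE core and the TATA box. The palindromic glucocorticoid response element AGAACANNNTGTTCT was searched in the same windows and lay in 1 of the 10459 genes, Sgk1, at the window of 1 of its several start sites, where it is in capitals. In the Hes5 window, given for the leading fall, the capitals mark a letter match to the CArG box. It begins at position -33 from the start site, where the TATA boxes of Fos (-33) and Apold1 (-32) also begin. Whether SRF binds it was not tested.
Fos, chr12:85473640-85473889, plus strand: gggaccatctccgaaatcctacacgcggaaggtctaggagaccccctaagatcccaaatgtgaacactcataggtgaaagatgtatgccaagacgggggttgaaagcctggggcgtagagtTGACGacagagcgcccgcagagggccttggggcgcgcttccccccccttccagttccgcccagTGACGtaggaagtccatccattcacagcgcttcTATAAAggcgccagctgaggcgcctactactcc
Sgk1, chr10:21993640-21993889, plus strand: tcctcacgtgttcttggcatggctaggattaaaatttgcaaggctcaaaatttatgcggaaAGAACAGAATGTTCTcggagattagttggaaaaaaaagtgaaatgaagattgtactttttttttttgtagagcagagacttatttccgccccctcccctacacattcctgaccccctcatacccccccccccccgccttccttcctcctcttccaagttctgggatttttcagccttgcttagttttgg
Apold1, chr6:134981751-134982000, plus strand: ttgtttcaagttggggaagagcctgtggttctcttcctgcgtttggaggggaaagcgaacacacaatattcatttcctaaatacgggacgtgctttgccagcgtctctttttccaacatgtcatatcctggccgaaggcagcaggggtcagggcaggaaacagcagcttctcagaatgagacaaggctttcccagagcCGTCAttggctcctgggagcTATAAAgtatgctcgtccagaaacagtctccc
Hes5, chr4:154960673-154960922, plus strand: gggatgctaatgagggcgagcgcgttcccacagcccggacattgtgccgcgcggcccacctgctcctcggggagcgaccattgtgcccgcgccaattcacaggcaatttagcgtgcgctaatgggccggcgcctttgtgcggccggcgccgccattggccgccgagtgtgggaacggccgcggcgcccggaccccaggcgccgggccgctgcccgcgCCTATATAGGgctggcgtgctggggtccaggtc

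Of 35 measured unfolded protein response and heat shock genes, 4 rose and none fell, and 2 were called higher after the GC step. The log2 fold change was positive for 30, with a median of 0.12. The 4 were Xbp1, a transcription factor that drives the response, the disulfide isomerase Pdia4, the lumenal chaperone Hspa5 and its co-chaperone Dnajc3. In the authors' deposited table Xbp1 rose from 1465.6 to 1841 counts (0.34 ± 0.07, adjusted p 9.87e-05). Hspa5 rose from 5997.6 to 7431.8 in the authors' deposited table (0.33 ± 0.08, adjusted p 0.0187). Subtracting the GC trend left Xbp1 and Pdia4 past the threshold and put Hspa5 and Dnajc3 outside it, with adjusted p of 0.0627 and 0.247. The cytosolic heat shock gene Hspa1a, whose reads may be shared with a near-identical copy and which was picked after its value was seen, stood at -0.44 with an adjusted p of 0.36 in the authors' deposited table.

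Several lists held a single riser. Txnip, the thioredoxin inhibitor that limits glucose uptake, rose from 384.8 to 567.6 counts in the authors' deposited table (0.57 ± 0.10, adjusted p 1.38e-05), the single call among 21 alpha-arrestins and fuel genes. Dio2, the deiodinase that activates thyroid hormone, rose by 0.43 with an adjusted p of 5.09e-05 in the authors' deposited table, 1 of 8 thyroid hormone genes. Bhlhe40, a repressor tied to the clock, rose by 0.32 (adjusted p 0.0104 in the authors' deposited table), 1 of 21 clock genes. Of the 52 risen genes, 14 belonged to no list, and they include the transcription regulators Arid5a, Zfp189 and Irf2bp2, named here after their values were seen. No member passed in 11 of the 23 pathway lists. These include Id and BMP genes, cholesterol synthesis, neuropeptide precursors, imprinted genes and cytosolic ribosomal proteins. The mitochondrially encoded genes are another, with 13 of 13 above 0, a median of 0.15 (0.09 after the GC step) and a sum of 54246 CPM in Homecage, 55272 in Handling, 59962 in Restraint and 60242 in Swim. The part of this shift in other results was not tested. The imprinted gene Ndn, which encodes necdin, stood at -0.43 with an adjusted p of 0.349 in the authors' deposited table.

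The falls were led by Hes5, a transcriptional repressor that Notch signalling switches on, marking neural stem cells and astroglia. It fell from 117.2 to 46 counts in the authors' deposited table (-1.30 ± 0.21, adjusted p 3.79e-07), a 2.47-fold drop. None of the other 28 Notch pathway genes passed in dorsal tissue. Hes1, a relative in the list, stood at -0.39 (adjusted p 0.356 in the authors' deposited table). Wnt9a, a secreted Wnt ligand, fell from 213.6 to 107.8 (-0.95 ± 0.20, adjusted p 0.00133 in the authors' deposited table). Zfp46, a zinc finger gene, fell from 1194.6 to 917.8 (-0.35 ± 0.08, adjusted p 0.00415 in the authors' deposited table). Sox9, a glial factor and 1 of 14 astrocyte markers, fell from 557.6 to 405.5 in the authors' deposited table (-0.43 ± 0.12, adjusted p 0.0482), and no other member of its list passed. Sox2, a neural stem cell factor named after its value was seen, fell from 487.8 to 325.6 in the authors' deposited table (adjusted p 0.0233).

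Other falls named by their low adjusted p included genes expressed in neurons, although no list of neuronal markers held a call. Lmtk3, a neuronal kinase, fell from 7169.2 to 4927.6 counts in the authors' deposited table (-0.52 ± 0.12, adjusted p 0.00522). Sptbn4, the spectrin of axon initial segments and nodes, fell by 0.37 and Basp1, a growth cone protein, by 0.33 in the authors' deposited table. Pcsk1n, which encodes the prohormone convertase inhibitor proSAAS, went from 2889.6 to 1184.8 (-1.26 ± 0.31, adjusted p 0.014 in the authors' deposited table). The fallen genes had a median transcript GC content of 59.9%, against 51.4% for the risen and 50.9% for all genes, and 24 of the 31 with a value (77.4%) lay in the highest 2 GC deciles, which hold 20.0% of all genes.

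The whole table followed the same gradient. The median log2 fold change ran from 0.05 in the lowest GC decile to -0.16 in the highest, and its rank correlation with GC content was -0.461 across genes, which are not independent replicates. A lowess trend of the log2 fold change on GC content was therefore subtracted as an alternative, with the implied error kept. It left 67 calls, 50 higher (0.367%) and 17 lower (0.125%), which moved the share of higher calls from 61.9% to 74.6%. Of the risen genes 44 were still called. Of the fallen 12 were: Hes5, Sox18, Sox17, Sox2, Sox9, Wnt9a, Zfp46, Pcsk1n, Rap2b, Gm4737, 1110002E22Rik and ENSMUSG00000095742, the last of these with no GC value and so no trend subtracted. Lmtk3, Basp1, Col11a2, Cep131 and Sptbn4 were no longer called, with adjusted p from 0.192 to 1. Whether the gradient comes from library preparation or from the tissue was not tested.

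**Figure D3:**
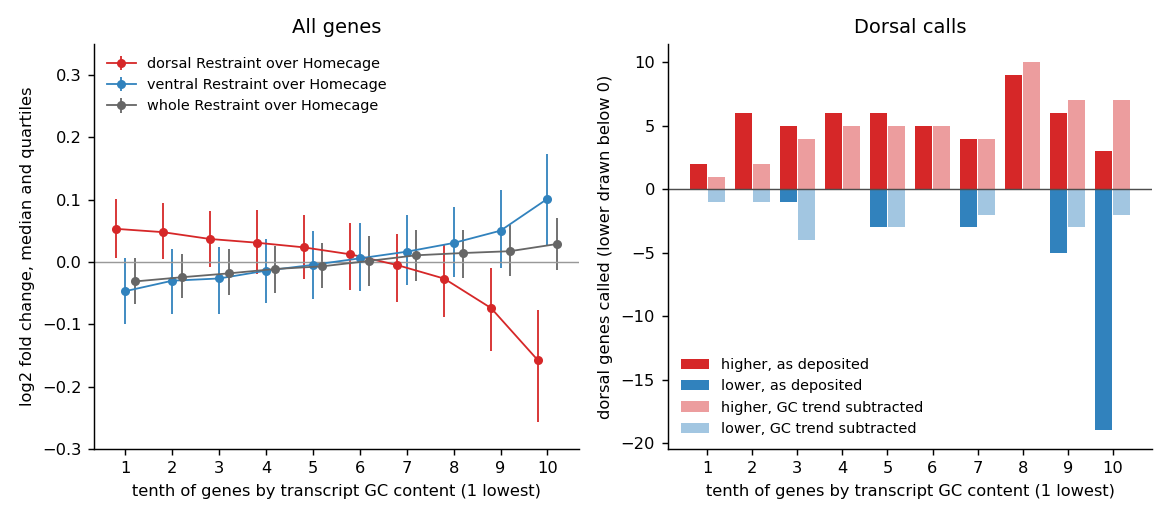
Left, median and quartiles of the log2 fold change (y axis) in deciles of transcript GC content (x axis) for the dorsal, ventral and whole hippocampus Restraint tables. Right, number of dorsal genes called in each decile before and after the trend was subtracted, with lower calls drawn below 0. The dorsal median falls from 0.05 to -0.16 while the ventral median rises from -0.05 to 0.10, and 19 of the dorsal falls lie in the highest decile.

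Choroid plexus transcripts were high in the Restraint group. This epithelium makes cerebrospinal fluid inside the ventricles that border the hippocampus and is not part of it. Of 18 listed markers 11 were measured, all 11 were higher, with log2 fold changes from 1.26 to 4.94 and a median of 2.68, and 6 passed. Ttr, the transthyretin gene, had a mean of 946.8 counts in Homecage and 28300.2 in Restraint in the authors' deposited table (4.94 ± 0.97, adjusted p 0.000226). Enpp2, which encodes autotaxin, had 3706.4 and 17875.2 in the authors' deposited table (2.31 ± 0.59, adjusted p 0.0239). F5, Aqp1, Col8a1 and Otx2 are the other calls. The summed level of the list was 243.9 CPM in Homecage, 335.4 in Handling, 324.5 in Swim and 2163 in Restraint, with Restraint the highest of the 4 groups. The implied errors of these markers were 2.09 to 13.9 times the median of the 100 genes nearest in count, and how many of the 5 libraries carried the signal was not tested.

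Mfrp, Sulf1 and 1500015O10Rik, which are in no list and were picked after their values were seen, had log2 fold changes of 3.65, 2.43 and 3.21 in the authors' deposited table. The listed markers were joined with genes whose ventral log2 fold change was higher by at least 1 after Handling than after Restraint. Together they make a set of 31, of which 9 had risen. Without this set 75 of the calls are left. Repeating the adjustment over the remaining genes made that 70, 41 higher and 29 lower. Ependymal markers, from the cells that line the ventricle, had 9 of 9 members above 0 with a median of 0.28 and no call, and their sum was 22.0 CPM in Homecage and 27.1 CPM in Restraint. Meningeal fibroblast markers summed to 85.0 and 119.4 CPM with no call, a median of 0.05 and 6 of 12 above 0. Igf2, at 30.1 and 60.5 CPM, and Slc13a4, at 4.0 and 10.4 CPM, carried most of that gap. The sums of 5 blood cell markers were 233.2 and 219.7 CPM, with no call. No list of neuronal, microglial, oligodendrocyte or mural cell markers, nor of neighbouring neocortex, thalamus or striatum, held a call. In all, 17 of the 19 marker lists had none. The part of the choroid plexus in other results was not tested. Leaving its genes out keeps the fold change and p-value of every other gene and only repeats the adjustment. That Fos, Sgk1, Apold1 and Hes5 stayed called therefore says nothing about that part.

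**Figure D4:**
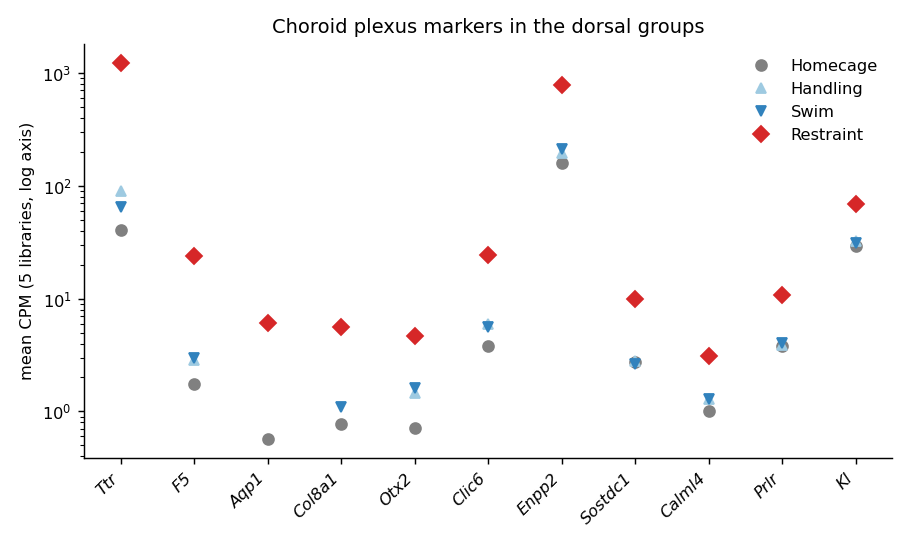
Mean CPM (y axis, log scale) of the 11 measured choroid plexus markers in the 4 dorsal groups, computed from deposited group means of 5 libraries. Each Restraint point lies above the other groups, by most for Ttr. A group with no point for a gene had no entry in its table.

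The question whether the dorsal response appears in other samples of hippocampus was addressed with the ventral and whole hippocampus tables, which share no libraries with the dorsal one. Of the 50 risen genes measured in ventral tissue, 46 were also higher there and 32 were called higher (64%, or 15.8% of the 203 ventral rises, against a background of 1.48% of ventral genes). In whole hippocampus 51 of 51 were higher and 33 were called (64.7%, or 47.8% of the 69 rises there, background 0.504%). Part of this sharing is choroid plexus signal. The ventral calls include F5 (0.68, adjusted p 0.0376) and the whole hippocampus calls include Ttr (1.86, adjusted p 0.00737), both in the authors' deposited tables. A set of 29 genes was called higher in all 3 tables, among them Fos, Fosb, Egr1, Egr2, Nr4a1, Npas4, Sgk1, Tsc22d3, Dusp1, Apold1, Cyr61, Klf2 and Klf4. A further 16 were called in dorsal tissue and in neither of the others. These hold the early factor Nr4a2, the choroid plexus markers Aqp1, Otx2, Enpp2 and Col8a1, Gm10273 and the folding genes Xbp1, Pdia4, Hspa5 and Dnajc3. That is a count of calls, and for those 4 folding genes the test of the regional difference described next missed the threshold (adjusted p 0.208 to 0.519). Aqp1 had no entry for ventral or whole tissue and Otx2 none for ventral, so they could not be called there.

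The falls were not shared in this way. Of 32 measured in ventral tissue, 8 were lower there and 2 were called, Hes5 and Zfp46. In whole hippocampus 17 of 31 were lower and 1, Hes5, was called. The background of lower calls was 0.916% in the ventral and 0.0365% in the whole table. The median of the fallen genes was 0.16 in the ventral and -0.01 in the whole table, against -0.52 in dorsal tissue, where they had been chosen for being low. Hes5 was at -1.09 in the authors' deposited ventral table (adjusted p 2.8e-06) and at -0.86 in the whole one (adjusted p 7.86e-07). The 8 falls lower in ventral tissue were Hes5, Sox18, Sox17, Sox2, Sox9, Wnt9a, Zfp46 and Rap2b. All are among the 12 falls still called after the GC step. The 20 that lost their call in that step were all higher in ventral Restraint than in ventral Homecage. The GC trend ran in opposite directions in the 2 regions, and its part in this contrast was not tested.

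**Figure D5:**
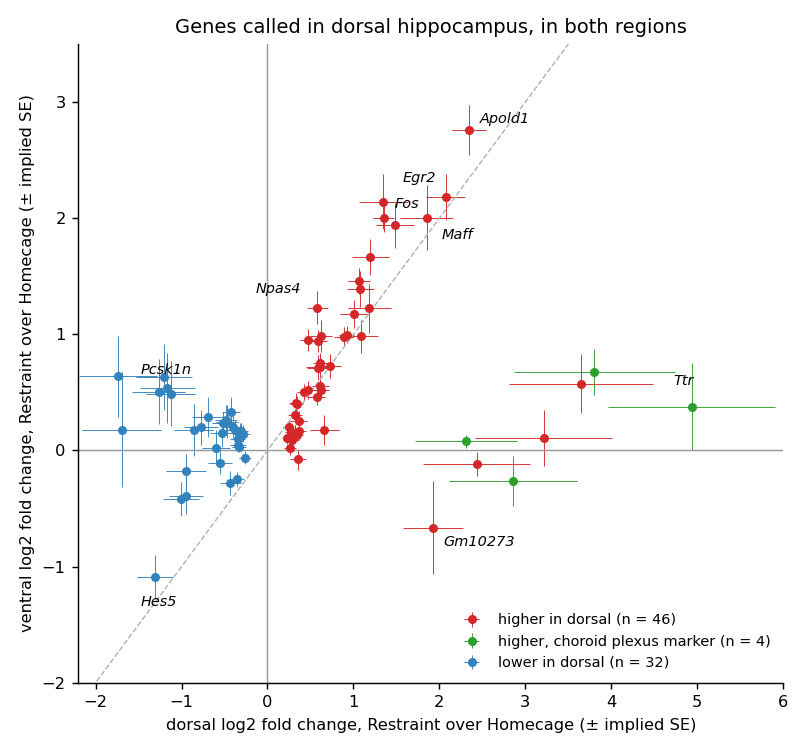
Log2 fold change after Restraint in dorsal (x axis) and ventral (y axis) hippocampus for the 82 called dorsal genes measured in both, with bars of ± 1 implied SE and a dashed line of equality. Most risen genes (red) lie above 0 in both, choroid plexus markers (green) far to its right, and most fallen genes (blue) lie above 0 in ventral tissue, with Hes5 low in both. No GC trend was subtracted here.

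The difference between the regional responses was tested gene by gene, dividing the ventral minus dorsal log2 fold change by the combined implied error. It passed for 267 of 13516 genes (1.98%), 236 of them higher in ventral. Fos rose more in ventral tissue, by 0.65 ± 0.17 on the log2 scale (adjusted p 0.0196), as did Npas4 (0.65 ± 0.19, adjusted p 0.0371) and Btg2 (0.48 ± 0.13, adjusted p 0.0238). Egr3, another early factor, differed by 0.66 ± 0.14 (adjusted p 0.00567), having stood at -0.20 in dorsal and 0.46 in ventral tissue in the authors' deposited tables. Of the 26 immediate early factors 8 passed as higher in ventral and 1 as lower. The lower one was Nr4a2, named after its value was seen (-0.43 ± 0.13, adjusted p 0.0497). It stood at 0.35 in dorsal and -0.08 in ventral tissue in the authors' deposited tables. Homer3, a scaffold of metabotropic glutamate receptors, differed by 0.59 ± 0.11 (adjusted p 0.00184) and Adra1d, an adrenergic receptor, by 0.78 ± 0.17. Lower in ventral were Mef2c, Camk2d, Nrep, Bmp3, Ttr (-4.56 ± 1.04, adjusted p 0.00752) and Gm10273, a predicted gene whose reads may be shared with similar copies (-2.58 ± 0.53).

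This regional result depends on GC content, whose trend ran in opposite directions, with a rank correlation of -0.461 in the dorsal and 0.376 in the ventral table. With the trend subtracted from both tables the difference passed for 7 genes (0.0518%), of which 5 were among the 267: Gm10273, Bmp3, Ttr, Gsg1l and Ccbe1. Fos then differed by 0.59 with an adjusted p of 0.139, and Egr3 by 0.56 with 0.0674. Nr4a2 differed by -0.40 (adjusted p 0.23). Homer3 then differed by 0.37 (adjusted p 0.165) and Adra1d by 0.29 (adjusted p 0.889). For Apold1, Sgk1, Egr1 and Hes5 the regional difference missed the threshold in both versions of the test (adjusted p 0.609 to 0.999).

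Swim and Handling were compared with Restraint within dorsal tissue. These tables share the 5 Homecage libraries, so their resemblance to the Restraint table is not evidence and is given only as values. The mean level of Fos was 5.66 CPM in Homecage, 18.4 in Handling, 14.4 in Restraint and 15.5 in Swim. That of Egr1 was 104.1, 202.2, 159.6 and 169.8 CPM in the same order. Both were thus above Homecage in each treated group, with Handling the highest. Sgk1 had 49.8, 64.5, 94.8 and 95.7 CPM, and Apold1 had 2.12, 3.22, 10.6 and 6.83 CPM. For these 2 genes Handling stood nearest to Homecage. Swim raised 49 of 13645 genes (0.359%) and lowered 12 (0.0879%) in its own table, and Handling raised 16 of 13610 (0.118%) and lowered 1 (0.00735%). Of the immediate early factors 8 were called higher after Swim and 7 after Handling, beside the 11 after Restraint, and of the glucocorticoid receptor targets 8 and 2, beside 7. Hes5 stood at -1.71 after Swim (adjusted p 7.44e-13) and at -0.50 after Handling (adjusted p 1) in the authors' deposited tables.

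Restraint exceeded Handling past the threshold for 2 of 13569 genes (0.0147%). They were Apold1, by 1.77 ± 0.27 on the log2 scale (adjusted p 1.63e-06), and Sgk1, by 0.57 ± 0.12 (adjusted p 0.0081). Between Restraint and Swim 0 of 13592 genes passed, 73 had an unadjusted p under 0.05, and the differences of Apold1 and Sgk1 had an adjusted p of 1. Because the shared Homecage libraries make these errors too large, the error was also computed with that share removed, a step added after the data were seen. Then 14 genes differed from Handling, adding Cyr61 (1.00, adjusted p 0.00428) and the choroid plexus markers Ttr, Enpp2, F5 and Sostdc1 among others. From Swim 13 differed, among them Ttr, Enpp2, F5, Sostdc1 and Col8a1. Klf2 was higher after Restraint (0.88, adjusted p 0.0364) and Arrdc3 lower (-0.32, adjusted p 0.0362). The step assumes that Homecage and the treated group give equal error. That cannot hold for these choroid plexus markers: the implied SE of Enpp2 was 0.593 for Restraint, 0.115 for Swim and 0.122 for Handling. Their calls here therefore rest on an error that is too small.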

How the data were processed

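Members and gene lists were chosen with earlier results of these data known. Per the file headers, each deposited table gives 2 group means of estimated counts, a fold change (ratio), its log2 value, a p-value and a false discovery rate, all made by the authors; which counting program and test they used is not given in the sources used here. Bowtie 0.12.2 and the build mm8 are listed, with no role, in the submitters' processing notes. The planned case of counts per library did not hold, so calls are the authors' adjusted p at 0.05, with 1 entry kept per gene ID (147 of 13780 entries dropped). The deposited adjusted p equals Benjamini-Hochberg over every entry.

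The implied SE is the absolute log2 fold change over the normal quantile of its p-value. Differences between tables were tested as a Wald statistic on these errors with Benjamini-Hochberg adjustment over all shared genes. The test was also run on data simulated with these same errors and no GC trend. That run cannot show whether the errors suit the real data. Removing the shared Homecage error assumed equal error from both groups. CPM are group means scaled to a sum of 1e6. GC content and length are means or medians over GENCODE M21 transcripts (GRCm38), present for 99.8% of genes, with lowess fraction 0.3. Other alternatives left out group means under 100, used total-count scaling, or left out choroid plexus markers and genes whose ventral Handling mean exceeded ventral Restraint by at least 1 log2 unit. Named genes are the 16 risen and 12 fallen with the lowest adjusted p, up to 4 per list among 42 lists, 13 fixed genes, and up to 6 per direction of each difference; others are marked as chosen after their values were seen, and 1 gene that the rule names is not reported here. Promoter windows are RefSeq's, searched on both strands. Python 3.11.15, pandas 2.3.3, scipy 1.17.1 and statsmodels 0.14.6 were used.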

Additional observations from a re-analysis of the deposited data

Results flagged for a closer look

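The response to Restraint differed between ventral and dorsal hippocampus, in a test of the difference itself, for 28 of the genes named by rule and reported here. Values are ventral minus dorsal log2 fold changes ± combined implied SE, and no explanation was tested. Among early-response genes they were 0.65 ± 0.17 for Fos (adjusted p 0.0196), 0.65 ± 0.19 for Npas4, 0.66 ± 0.14 for Egr3 and 0.48 ± 0.13 for Btg2. Dorsal falls differed from ventral by 0.76 ± 0.15 for Lmtk3, 0.36 ± 0.09 for Basp1, 1.77 ± 0.42 for Pcsk1n, 0.75 ± 0.17 for Col11a2, 0.44 ± 0.11 for Cep131 and 0.55 ± 0.12 for Sptbn4. Other genes higher in ventral were Homer3 at 0.59, Plch2 at 0.49, Gm20605 at 0.77, Adra1d at 0.78, Vgf at 0.61, Rps4l at 0.79, Olig1 at 0.51, C1ql2 at 0.80, Bok at 0.51 and Grik4 at 0.37. Lower in ventral were Ttr at -4.56, Enpp2 at -2.24, Gm10273 at -2.58, Bmp3 at -1.04, Camk2d at -0.59, Mef2c at -0.42, Nrep at -0.49 and Gsg1l at -0.55. After the GC trend was subtracted, Ttr, Gm10273, Bmp3 and Gsg1l of these still passed. Of those that did not, Enpp2 at -2.18, Pcsk1n at 1.63, Btg2 at 0.51, Fos at 0.59 and Grik4 at 0.33 stayed near their size, whereas Lmtk3 at 0.32, Col11a2 at 0.31, Sptbn4 at 0.19, Vgf at 0.17, Bok at 0.16, Adra1d at 0.29 and C1ql2 at 0.40 became smaller.

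The response to Restraint also exceeded the dorsal response to Handling for Apold1, by 1.77 ± 0.27 (adjusted p 1.63e-06), and for Sgk1, by 0.57 ± 0.12 (adjusted p 0.0081). Both tables share their Homecage libraries.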

How the results depend on the processing

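The 84 dorsal calls, 52 higher and 32 lower, became 67 to 84 under 5 of the alternatives and 51 (31 higher, 20 lower) when genes with a group mean under 100 counts were left out, which tests fewer genes. Lower calls became 17 when the GC trend was subtracted. The ventral minus dorsal difference went from 267 genes to 7 with the GC trend subtracted, and stayed between 187 and 266 otherwise. The difference from Handling went from 2 genes to 1 (Sgk1) with the minimum of 100, since Apold1 falls under it. It went to 14 with the shared Homecage error removed, which took the difference from Swim from 0 to 13. That step makes the error too small for the choroid plexus markers among them. Subtracting the GC trend ended 28 of the 84 calls, 8 higher and 20 lower, and gave 11 other genes a call, 6 higher (with Arc and Per1) and 5 lower. The cause was not tested. No sign of a called gene reversed under any alternative run. No paired analysis was possible because only group means were used, with no values per library; for the same reason leave-one-out fits, a replicate block and other count tests were not run. Depth limits low genes: Maff and Egr2 rest on Homecage means of 9.8 and 23.4 counts.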
